A study of Mus musculus with 19 samples.

Results

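The heat shock and DnaJ chaperone genes were taken as all protein-coding genes whose mouse symbol starts with Hspa, Hspb, Hspd, Hspe, Hsph, Hsp90 or Dnaj. They numbered 74 among the 55487 genes of the deposited tables: 13 Hspa, 10 Hspb, 3 Hsp90, 1 each of Hspd, Hspe and Hsph, 4 Dnaja, 13 Dnajb and 28 Dnajc genes. A further 14 genes carried such a symbol and were left out because the annotation does not call them protein-coding. Their RNA was measured by sequencing of cerebral cortex in 19 libraries from male mice of the genotype P301S/E4, aged 41 weeks. P301S is a tau mutation that causes frontotemporal dementia in people, and E4 is the form of apolipoprotein E that raises the risk of Alzheimer's disease. All 19 libraries carry that 1 genotype label, and the transgene's promoter is not given in the sources used here. Lemborexant, an antagonist of both orexin receptors used against insomnia, was the treatment of 10 libraries: 30 mg/kg by gavage each day at zeitgeber time 13, from 7.5 to 9.5 months of age. The other 9 libraries came from mice gavaged with the vehicle, 0.5% methylcellulose. The comparison asks which chaperone transcripts differ in tauopathy cortex after chronic blockade of orexin signalling.

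Heat shock proteins are chaperones: they hold, fold, disaggregate or hand over to degradation proteins that have lost their shape. Hsp70 proteins (Hspa genes) work in cycles of ATP binding that DnaJ proteins start by delivering a client and that Hsp110 proteins (Hspa4, Hspa4l, Hsph1) end by exchanging the nucleotide. Hsp90 takes over late folding steps, the mitochondrial chaperonin of Hspd1 and Hspe1 folds imported proteins, and the small heat shock proteins (Hspb genes) bind unfolding proteins without ATP and several of them are made mainly by glia and vessel cells. Cytosolic members respond to the heat shock factor Hsf1, and members of the endoplasmic reticulum respond to the unfolded protein response. In tauopathies these systems meet misfolded tau, which Hsc70, Hsp90 and several DnaJ proteins bind.

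Some libraries stood apart before any comparison. The pairs lemborexant 1 and 10, 3 and 8, and 4 and 9 were nearly alike: over genes, chi-square divided by its degrees of freedom came to 3.08 to 3.66 in these pairs and to at least 12.2 in the other 168, so each result is also given with their counts summed (7 lemborexant units against 9 vehicle libraries). Cst7, a gene that microglia switch on around brain pathology, was below 1 CPM (gene reads scaled to a library's total and its TMM factor) in 4 libraries, lemborexant 1 and 10 and vehicle 1 and 4, and between 16.4 and 144 CPM in the other 15. In these 4 libraries the astrocyte gene Gfap was at 430 to 582 CPM, against 3023 to 8699 CPM in the others, and Prnp, whose regulatory sequence drives many tau transgenes, was at 662 to 1036 CPM against 1005 to 2137 CPM. The labels do not set these 4 apart, so the split describes libraries and not a condition of the study. Lemborexant 7 had the fewest reads of the excitatory neuron markers in all 19 libraries, 421 CPM over 5 genes, and vehicle 7 had 1183 CPM over 6 hepatocyte markers against at most 46.0 CPM elsewhere. The excitatory markers were present in every library, and choroid plexus markers ranged from 179 to 13450 CPM. Gene reads per library ran from 20185098 to 31795633, and the totals did not differ between treatments past 0.05 (exact two-sided permutation test, p = 0.106). The labels do not say whether each library is a separate mouse, and the p-values cover only the library-to-library spread, part of which may be technical.

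Hsc70 RNA dominated the family. Per gene length, in deposited TPM (reads scaled to gene length and library total), the constitutive Hsp70 gene Hspa8 averaged 2393 ± 412 (SD, n = 19) with a range of 1567 to 3010. Hsp90ab1, the constitutive cytosolic Hsp90, followed at 1275 ± 174 TPM, and Hsp90aa1, its inducible partner, at 605 ± 31.1 TPM (SD, n = 19). The ranges of these 3 genes did not overlap, so their order held in every library. Next came Hspe1, the lid of the mitochondrial chaperonin, at 283 ± 57.4 TPM, Hspa5, the Hsp70 of the endoplasmic reticulum, at 248 ± 62.1 TPM, and Dnaja1, a main partner of Hsc70, at 243 ± 44.8 TPM (SD, n = 19). These neighbours did not differ beyond their spread. Hspd1, the barrel of the chaperonin, at 166 ± 20.7 TPM, and Hsp90b1, the Hsp90 of the endoplasmic reticulum, at 166 ± 25.8 TPM, were level with each other.

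The stress-inducible Hsp70 genes were nearly silent by comparison. Hspa1a averaged 4.56 ± 1.36 TPM and Hspa1b 0.977 ± 0.333 TPM (SD, n = 19), and they held ranks 60 and 67 of the 74 genes. Among the small heat shock genes Hspb6 averaged 28.3 TPM, Hspb8 26.4 TPM and Hspb1 15.8 TPM. At the bottom, Dnajc5g was listed at 0 in all 19 libraries, and Dnajb8, Dnajc22, Dnajc5b and Hspb9 averaged at most 0.166 TPM, which kept these 5 and Hspb7 out of the treatment test. The spread across all 19 libraries was narrow for the housekeeping chaperones, with a coefficient of variation of 6.87% for Hsp90b1, 7.29% for Hspa9 and 11.1% for Hspa8 in CPM. It was wide for Hspb6 at 54.5%, Hspb8 at 38.2%, Hspb1 at 43.4%, Hspe1 at 38.7% and Dnajb13 at 64.3%.

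**Figure D1:**
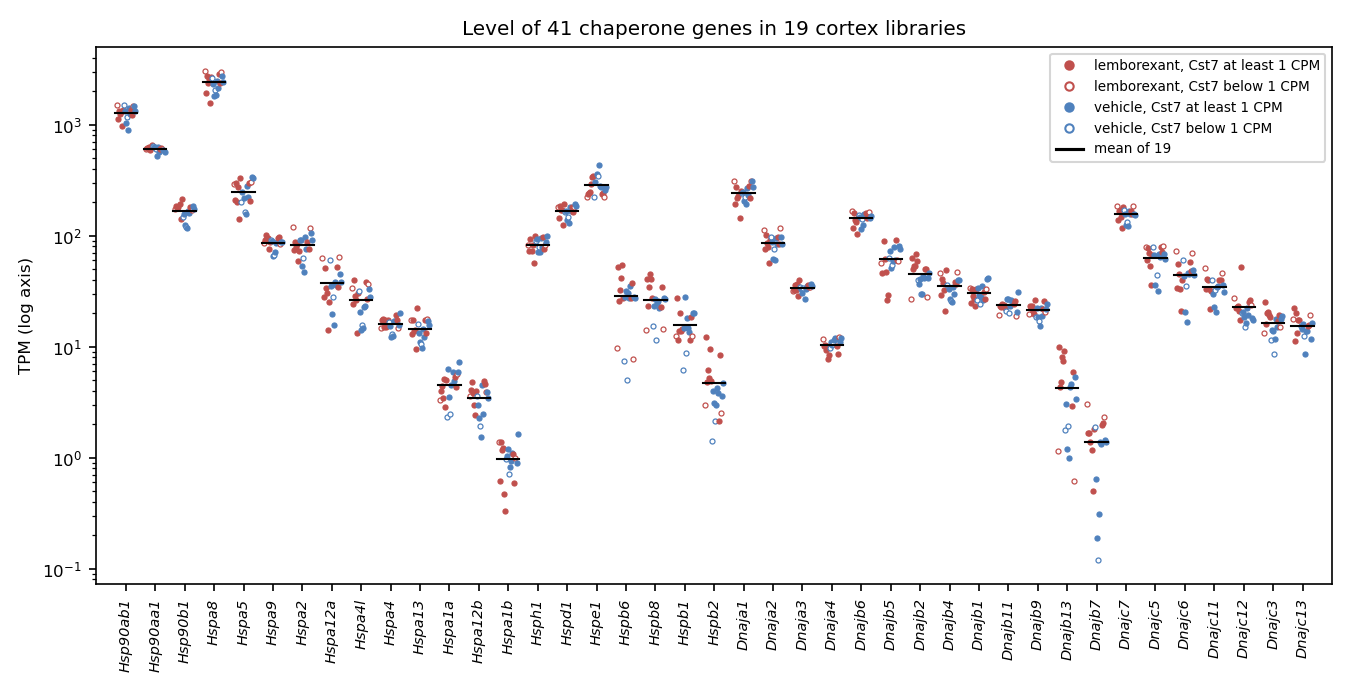
Level of the 41 chaperone genes described by rule, in TPM on a log axis, with 1 point per library and a bar at the mean of 19 libraries. Filled points are libraries with Cst7 at 1 CPM or more, open points the 4 libraries below it, and the open points of Hspb6 and Hspb8 lie at the bottom of their columns.

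Near-identical copies limit some of these levels. Hspa1a and Hspa1b share most of their sequence, with 63.8% of the 31-base words of Hspa1a and 67.7% of those of Hspa1b found in the other gene, so the authors' program had to divide their reads. Their sum was 8.81 ± 1.59 CPM after lemborexant and 11.3 ± 3.15 CPM after vehicle (SD, n = 10 and 9). Processed pseudogenes hold 52.3% of the 31-base words of Hspb1, 46.7% of those of Hsp90aa1, 46.5% of those of Hspd1 and 38.6% of those of Hspa8. Overlapping genes on the other strand cover 71.9% of the exon bases of Hspa1l, 44.1% of those of Dnaja4 (Wdr61), 30.2% of those of Hspb2 (Cryab), 26.2% of those of Dnajc30 (Bud23) and 11.2% of those of Dnajb13 (Ucp2). The use of strand in counting is not given in the sources used here, and without it reads of the shared bases cannot be told from those of the partners.

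Promoters were searched for the letters that heat shock factors read, and those of Hspb6, Hspb1 and the inducible Hsp70 genes are shown as examples. A promoter window from 250 bases before to 50 bases after the RefSeq start (GRCm38.p6) was given for 60 of the 74 genes. The genes without a window were not searched, and they include Hspa8, Hsp90aa1, Hsp90ab1, Hspb2 and Dnajc11. The head-to-head heat shock unit GAANNTTC, searched on both strands (it reads the same on each), was found in 14 of the 60 genes (23.3%), against 9.04% of the 27025 genes with a window and 7.86% of all 32851 windows. The 14 were Dnaja1, Dnaja4, Dnajb6, Dnajc27, Dnajc5g, Hspa1a, Hspa1b, Hspb1, Hspb3, Hspb6, Hspb8, Hspd1, Hspe1 and Hsph1. The longer form of 3 units, GAANNTTC followed directly by NNGAA, which overlaps the first wherever it occurs, was found in Dnajb6, Hspd1, Hspe1 and Hsph1 (6.67% of 60, against 0.662% of all genes). The tail-to-tail form TTCNNGAA was in 6 of 60 (10%, against 9.6%). In every form the matches of Hspd1 and Hspe1 are the same bases (chr1:55088059-55088076), counted for both genes. The near-copies Hspa1a and Hspa1b are also counted separately. These are matches of letters, not sites shown to be bound.

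The stretches below run 5′ to 3′ on the strand of the gene and hold no annotated exon, with GAANNTTC matches in capitals. Hspb6 is chr7:30553063-30553267 (plus strand, 238 to 34 bases before the start), Hspb1 is chr5:135887669-135887918 (plus), Hspa1a is chr17:34972157-34972406 (minus) and Hspa1b is chr17:34959239-34959488 (minus). The last 3 are the 250 bases before the start. For Hspb6 the start meant is its downstream RefSeq start. The window of its upstream start, which chr7:30552290-30552539 precedes, held no match.
Hspb6: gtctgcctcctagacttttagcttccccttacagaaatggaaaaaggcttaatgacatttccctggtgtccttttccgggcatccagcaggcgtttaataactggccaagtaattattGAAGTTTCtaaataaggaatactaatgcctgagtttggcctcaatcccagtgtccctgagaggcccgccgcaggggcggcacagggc
Hspb1: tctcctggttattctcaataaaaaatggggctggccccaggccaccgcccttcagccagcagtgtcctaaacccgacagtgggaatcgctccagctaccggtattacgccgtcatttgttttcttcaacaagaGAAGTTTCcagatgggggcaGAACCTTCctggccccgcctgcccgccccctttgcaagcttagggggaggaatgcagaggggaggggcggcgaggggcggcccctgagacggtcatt
Hspa1a: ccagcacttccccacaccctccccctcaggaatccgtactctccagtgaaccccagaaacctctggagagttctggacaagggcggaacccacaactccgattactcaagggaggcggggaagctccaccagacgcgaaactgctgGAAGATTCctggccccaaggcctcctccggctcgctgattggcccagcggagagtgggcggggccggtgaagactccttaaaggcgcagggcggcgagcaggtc
Hspa1b: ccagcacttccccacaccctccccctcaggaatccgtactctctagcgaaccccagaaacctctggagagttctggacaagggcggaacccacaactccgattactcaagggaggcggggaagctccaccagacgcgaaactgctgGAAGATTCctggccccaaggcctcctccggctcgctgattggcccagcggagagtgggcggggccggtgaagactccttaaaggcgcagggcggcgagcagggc
Hspb6 and Hspb1 hold the same 8 letters, GAAGTTTC, 120 and 117 bases before their starts, and Hspb1 has a second match, GAACCTTC, 97 bases before it. Hspb8 has GAAGTTTC too, on its other side, 2 bases after the start. Dnaja4, whose stretch is not printed, has GAACGTTC and GAACCTTC, 90 and 52 bases before a RefSeq start. Hspa1a and Hspa1b were identical at 247 of 250 positions (98.8%), including the match 104 bases before each start.

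A second element is shown because 1 of its holders was called in a comparison below. The endoplasmic reticulum stress element, CCAAT and CCACG with any 9 bases between them, was searched on both strands and found in Dnajc3, Hsp90b1 and Hspa5 (5% of 60 genes, against 0.137% of all genes), and it overlapped none of the other matches. Dnajc3 is chr14:118937682-118937931 (plus strand, the 250 bases before the start) and Hsp90b1 is chr10:86705510-86705694 (minus strand, 250 to 66 bases before the start). Capitals mark the element.
Dnajc3: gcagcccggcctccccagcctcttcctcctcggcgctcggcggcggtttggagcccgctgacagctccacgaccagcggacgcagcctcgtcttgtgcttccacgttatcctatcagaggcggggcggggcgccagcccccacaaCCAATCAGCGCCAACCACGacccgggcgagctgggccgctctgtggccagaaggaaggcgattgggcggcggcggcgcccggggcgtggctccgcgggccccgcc
Hsp90b1: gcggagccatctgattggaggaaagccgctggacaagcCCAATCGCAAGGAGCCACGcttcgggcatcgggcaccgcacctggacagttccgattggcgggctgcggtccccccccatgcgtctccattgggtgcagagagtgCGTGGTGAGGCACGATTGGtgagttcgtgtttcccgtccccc
Dnajc3 holds it 105 bases before the start. Hsp90b1 holds it 212 bases before the start and again, on the other strand, 107 bases before it. Hspa5 holds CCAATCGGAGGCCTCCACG 65 bases before its start.

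After lemborexant, 1 chaperone gene passed the test and it was lower: Dnaja4, a class A DnaJ protein that serves cytosolic Hsp70. Of the 74 genes 68 had enough reads to test, and 1 of them (0 higher, 1 lower) passed edgeR's quasi-likelihood test at an adjusted p of 0.05, against 2.61% of the 19105 genes tested (0.953% called higher and 1.65% lower). The median log2 change of the 68 was -0.08, with 43 below 0, and that of all genes was 0.03, with 46.4% below 0. Scaled to library totals alone, the median of all genes moved to 0.15 and that of the 68 to 0.04, with 28 below 0, so the side of 0 on which most members fell rests on the scaling. At an unadjusted p under 0.05 there were 16 members lower (23.5% of 68, against 13.5% of all genes) and 3 higher (4.41%, against 12.2%). On library totals these were 5 lower (7.35%, against 6.01%) and 9 higher (13.2%, against 21.5%). With the nearly alike pairs summed edgeR called 0 members and 0 genes of 19224 (0%), with 13 members (19.1%) and 4102 genes (21.3%) at an unadjusted p under 0.05. DESeq2 on separate libraries called 8 of the 69 members it gave an adjusted p, 7 lower and 1 higher, and 1825 of 22749 genes (8.02%, with 4.34% lower and 3.68% higher).

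Markers of other regions and of neuronal activity differed between the same groups. Of 6 hippocampal markers 0 were above 0 and 2 were called lower (median -0.76), with summed levels of 161 to 273 CPM after vehicle and 79.0 to 263 CPM after lemborexant. Of 6 thalamic markers 5 were above 0 and 3 called higher (median 1.07), with sums of 66.1 to 118 CPM and 90.5 to 297 CPM. Of 8 immediate early genes, which neuronal activity switches on, 1 was above 0 and 2 were called lower (median -0.76), with sums of at least 376 CPM after vehicle (median 536) and of 121 to 592 CPM after lemborexant (median 314). The 5 excitatory neuron markers had a median of -0.52 and 0 called, and summed to 1778 to 3201 CPM and 421 to 3303 CPM. All 6 striatal markers were above 0 and 1 was called higher (median 0.84). All 6 choroid plexus markers (median 0.61), all 6 oligodendrocyte markers (median 0.25) and 5 of 6 meningeal fibroblast markers (median 0.90) were above 0, with 0 called. Of 8 Cst7-side and 5 homeostatic microglia markers 2 and 1 were above 0, with 0 called. All 5 hepatocyte markers tested were called lower, with vehicle 7 far above the rest. The part of these shifts in the members' values was not tested.

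Dnaja4 (chr9:54698873-54716315, GRCm38) was measured at 19.6, 24.4 and 34.2 CPM (lowest, median and highest) in the 9 vehicle libraries. After lemborexant it ran from 15.3 over a median of 19.4 to 23.5 CPM. The groups overlapped, with vehicle 1 the lowest of its group and lemborexant 10 and 1 the highest of theirs, all 3 of them libraries with Cst7 below 1 CPM. The means were 25.8 ± 4.43 and 19.5 ± 2.59 CPM (SD, n = 9 and 10), and Dnaja4 fell by 0.40 ± 0.10 on the log2 scale (SE, with an edgeR adjusted p of 0.0404). With pairs summed the change was -0.41 ± 0.11 (adjusted p = 0.095), and the call was kept in 7 of 19 fits that left out 1 library, with log2 changes of -0.45 to -0.34 and adjusted p-values up to 0.0829. Its partner on the other strand, Wdr61, had a log2 difference of -0.21 (adjusted p = 0.189).

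Among the 15 libraries with Cst7 at 1 CPM or more, edgeR called 3 members, all lower after lemborexant (4.41% of 68, against 1.66% of genes called lower and 2.71% in all). Dnaja4 was lower by 0.50 ± 0.10 (log2, SE, edgeR adjusted p = 0.0253). It ran from 15.3 to 21.3 CPM in the 8 lemborexant libraries and from 21.7 to 34.2 CPM in the 7 vehicle libraries. These ranges did not overlap, which was so for 1 of 68 members and for 0.915% of genes in that direction. Dnajb1, the heat-inducible DnaJ partner of Hsp70, fell by 0.44 ± 0.10 (SE, with an edgeR adjusted p of 0.0283), from 57.1 to 86.4 CPM in vehicle libraries to 47.5 to 63.8 CPM. Hspa1a, the stress-inducible Hsp70 itself, fell by 0.55 ± 0.13 (SE, with an edgeR adjusted p of 0.0352), and its means were 10.8 and 7.39 CPM. With the pairs also summed, edgeR called 0 members and 0 of 19224 genes (0%), with 15 members (22.1%) and 3928 genes (20.4%) at an unadjusted p under 0.05, so these 3 calls hold only with the paired libraries counted as separate.

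The classical targets of the heat shock factor lay below 0 after lemborexant on the TMM scale. All 11 of those listed (Hspa1a, Hspa1b, Hspa8, Hsph1, Hsp90aa1, Hsp90ab1, Hspb1, Hspd1, Hspe1, Dnaja1 and Dnajb1) had log2 changes below 0, from -0.50 to -0.11 with a median of -0.27, and 0 of 11 passed the test. On library totals 10 of 11 were below 0 with a median of -0.14, where that of all genes was 0.15. Hsph1, the heat-inducible Hsp110 that reopens Hsp70, ran from 189 to 240 CPM in vehicle libraries (median 210) and from 145 to 204 CPM after lemborexant (median 176). Its 2 ranges overlapped, and the log2 change was -0.27 ± 0.08 (SE, with an edgeR adjusted p of 0.0604). Dnajb1 over all 19 libraries went from 73.9 ± 12.2 to 59.0 ± 5.96 CPM (SD, n = 9 and 10), a log2 difference of -0.32 ± 0.09 (SE, with an edgeR adjusted p of 0.0602). Dnaja1, with 461 CPM as the vehicle median and 392 CPM as that after lemborexant, had a log2 difference of -0.25 ± 0.08 (SE, with an edgeR adjusted p of 0.0832). None of the 3 passed 0.05, and with library totals as the scale Hsph1 was at -0.14, Dnajb1 at -0.20 and Dnaja1 at -0.12.

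The other targets had smaller or noisier values. Hspa8 averaged 3900 ± 266 CPM after vehicle and 3626 ± 494 CPM after lemborexant (SD, n = 9 and 10), a log2 difference of -0.11 ± 0.09 (SE, with an edgeR adjusted p of 0.479). Hsp90ab1 averaged 2257 ± 137 and 2014 ± 180 CPM (-0.16 ± 0.08, adjusted p = 0.177), and Hsp90aa1 1026 ± 145 and 906 ± 111 CPM (-0.18 ± 0.09, adjusted p = 0.231). None of these 3 abundant genes passed the test. Hspe1 had the largest difference of the list, -0.50 ± 0.19 (SE, with an edgeR adjusted p of 0.116), and a wide spread, with vehicle libraries between 83.9 and 246 CPM. Hspd1, which is transcribed away from Hspe1 out of a shared start region, differed by -0.15 ± 0.07 (SE, with an edgeR adjusted p of 0.163).

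**Figure D2:**
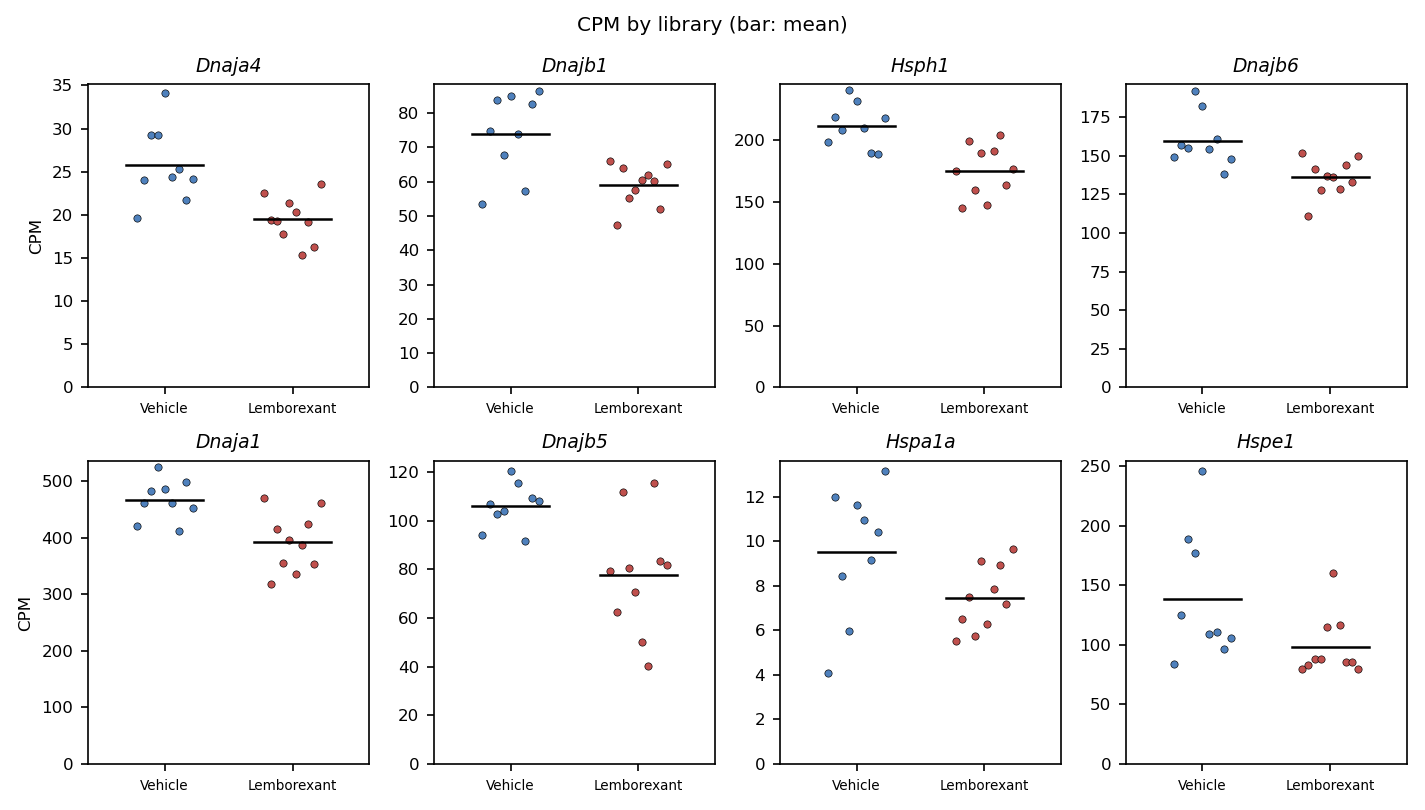
CPM of 8 members in each library by treatment, with 1 point per library (vehicle 9, lemborexant 10) and a bar at the mean. The 8 shown all had log2 changes below 0, so their common direction follows from the choice, and 25 of the 68 members tested were above 0. The groups overlap in each panel. Dnaja4 is the 1 gene of the 8 that passed the test over all libraries.

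The 4 DnaJ genes of class A were all below 0 on the TMM scale and on library totals, with log2 changes of -0.40 for Dnaja4, -0.25 for Dnaja1, -0.17 for Dnaja3 (the mitochondrial one, adjusted p = 0.123) and -0.13 for Dnaja2 (adjusted p = 0.242), and 1 of 4 passed (0 on library totals). Of 12 class B genes tested 7 were below 0 (6 on library totals) and 0 passed. Dnajb6, which keeps aggregation-prone proteins from forming fibrils, was at 160 ± 17.0 CPM after vehicle and 136 ± 12 CPM after lemborexant (-0.23 ± 0.07, edgeR adjusted p = 0.0771). Dnajb5 was at 106 ± 9.25 and 77.6 ± 23.9 CPM (-0.45 ± 0.15, edgeR adjusted p = 0.0874), with lemborexant 7 the lowest at 40.0 CPM. Dnajb13, a protein of motile cilia and sperm tails, had the highest log2 value of the family at 0.88 ± 0.39 (edgeR adjusted p = 0.167) and was at 2.48 ± 0.996 and 4.58 ± 2.73 CPM (SD, n = 9 and 10). The 6 ependymal and cilia markers were also all above 0 after lemborexant with 0 called, and their part in this value was not tested. Dnajb7 was the next highest at 0.73 ± 0.35 (edgeR adjusted p = 0.195), with a mean of 0.844 CPM after vehicle and 1.41 CPM after lemborexant. Of 25 class C genes 13 were below 0 (7 on library totals) and 0 passed.

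Mitochondrial chaperones were below 0 in 7 of 9 cases (6 on library totals), with a median of -0.17 and 0 called. Of the chaperones of the secretory pathway 5 of 9 were below 0 (2 on library totals), with a median of -0.01 and 0 called. Hspa9, the mitochondrial Hsp70, was at 182 ± 11.7 CPM after vehicle and 176 ± 14.1 CPM after lemborexant (-0.05 ± 0.06, edgeR adjusted p = 0.644). In the endoplasmic reticulum Hspa5 was at 449 ± 76.0 and 417 ± 80.0 CPM (SD, n = 9 and 10; -0.11 ± 0.12, edgeR adjusted p = 0.595) and Hsp90b1 at 307 ± 16.7 and 311 ± 25.4 CPM (0.02 ± 0.07, edgeR adjusted p = 0.874). Of 8 genes with an Hspb symbol that were tested 5 were below 0 (4 on library totals), with a range of -0.31 to 0.60 and 0 called. Of these 8, Hspb11, Hspbp1 and Hspbap1 carry the prefix and are not small heat shock proteins. Hspb6 and Hspb8 had log2 changes of 0.15 ± 0.40 and 0.22 ± 0.24 (SE, with edgeR adjusted p-values of 0.839 and 0.575), with SDs of 16.6 and 15.8 CPM among lemborexant libraries.

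The remaining named members did not pass. Dnajc5, the cysteine string protein of synaptic vesicles, was at 220 ± 29.9 CPM after vehicle and 221 ± 27.8 CPM after lemborexant (SD, n = 9 and 10; edgeR adjusted p = 0.965). Dnajc6 was at 137 ± 31.5 and 144 ± 41.1 CPM (edgeR adjusted p = 0.822), and Dnajc13, a protein of endosomes, had a log2 difference of 0.07 ± 0.08 (SE, with an edgeR adjusted p of 0.628). Hspa12b, an atypical Hsp70 of endothelial cells, had the highest log2 value among Hsp70 genes, 0.27 ± 0.10 (SE, with an edgeR adjusted p of 0.116). Dnajc12, which holds the enzymes of monoamine synthesis, was at 0.24 ± 0.13 (SE, with an edgeR adjusted p of 0.252), with 40.0 CPM in lemborexant 7 and 15.7 to 21.0 CPM in the other 18 libraries. Hspa2, Hspa4, Hspa4l, Hspa12a, Hspa13, Dnajb2, Dnajb4, Dnajb9, Dnajc3, Dnajc7 and Dnajc11 lay between -0.09 and 0.18 with adjusted p-values of 0.375 or more.

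Around the family, 54 other chaperone pathway genes (Hsf1 and its kin, Bag proteins, Hsp90 co-chaperones, the cytosolic chaperonin, prefoldin and others) were all tested, and 2 of 54 were called, both lower, with 45 of 54 below 0 and a median of -0.13 (26 of 54 below 0, a median of 0.01 and 0 called on library totals). Of all genes 2.61% were called, 1.65% lower, and 46.4% were below 0 with a median of 0.03. On library totals 29.7% of all genes were below 0, with a median of 0.15. Fkbp8, a membrane-anchored prolyl isomerase that binds Hsp90, fell from 247 ± 51.5 to 182 ± 19.9 CPM (SD, n = 9 and 10), a log2 difference of -0.44 ± 0.11 (SE, with an edgeR adjusted p of 0.0363). Tomm34, which links Hsp70 and Hsp90 to mitochondrial import, fell from 186 ± 18.7 to 144 ± 21.7 CPM (-0.37 ± 0.09, edgeR adjusted p = 0.0363). With pairs summed these were at adjusted p-values of 0.101 and 0.0881. Hsf1, the factor itself, was at -0.07 ± 0.08 (SE, with an edgeR adjusted p of 0.581).

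**Figure D3:**
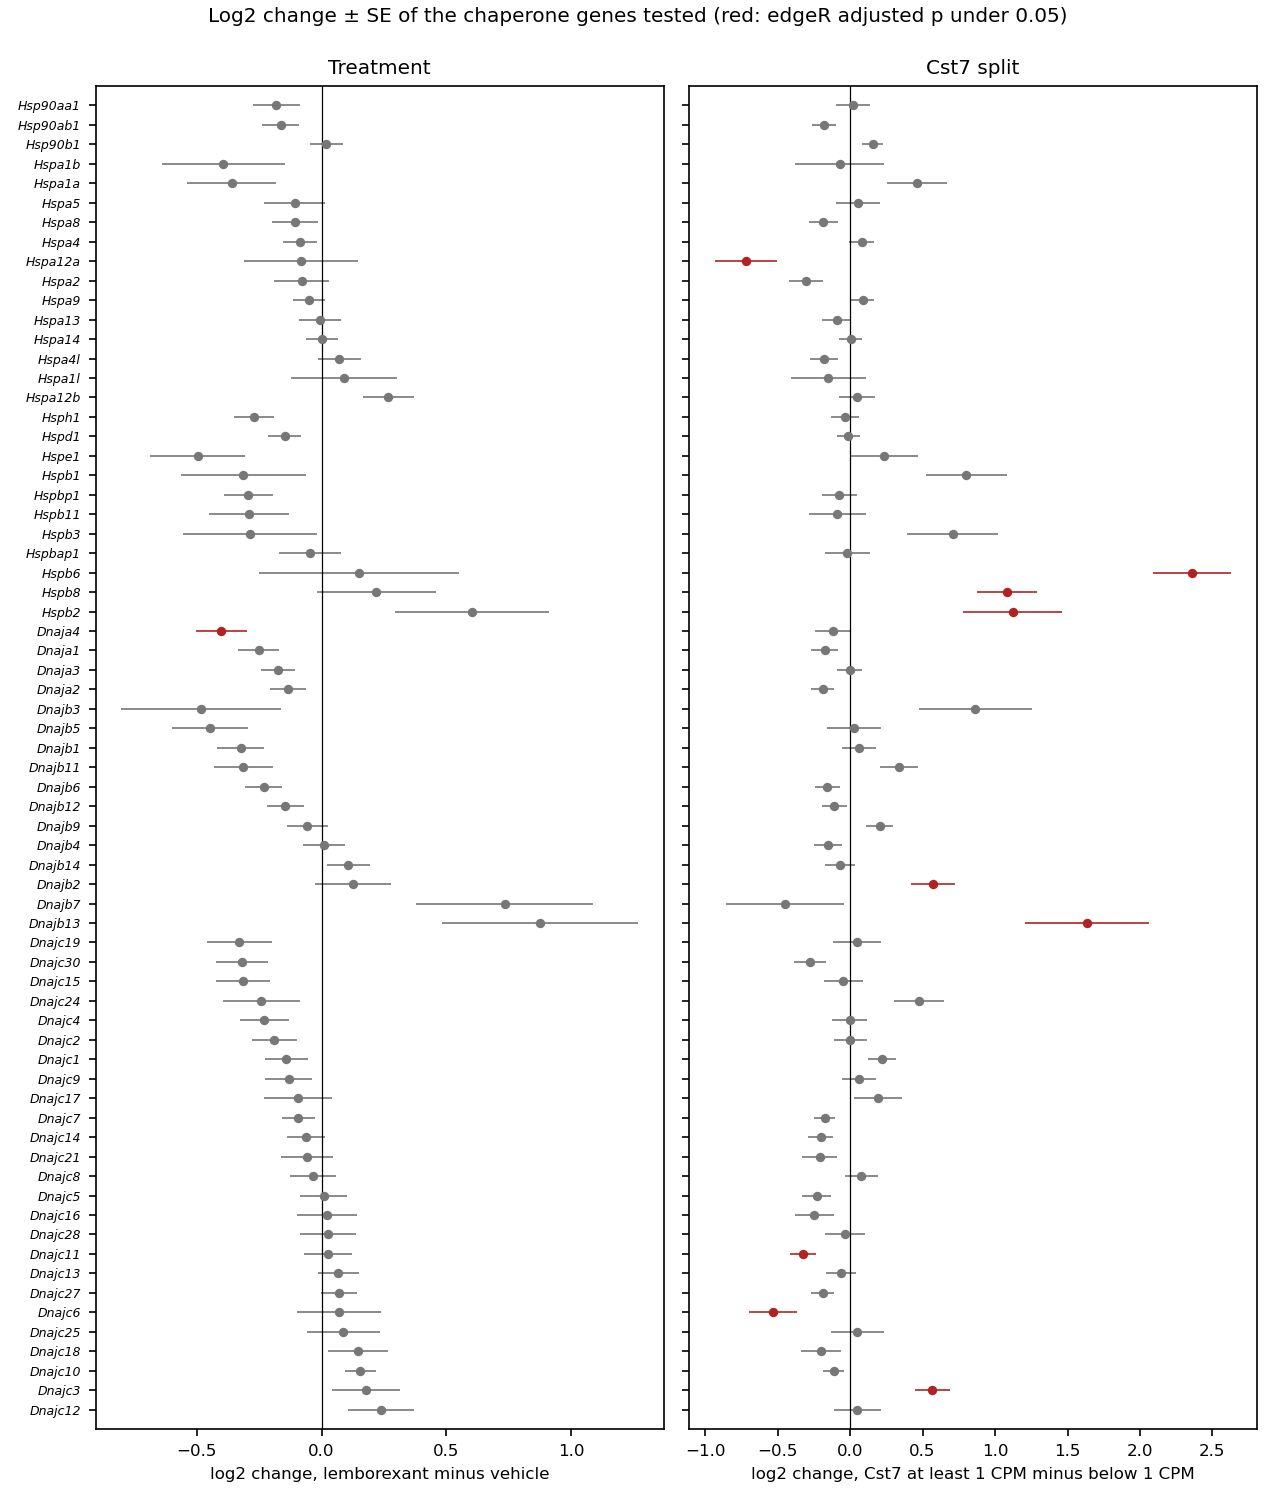
Log2 change ± SE of every member tested, after lemborexant (left) and between libraries with Cst7 at 1 CPM or more and below it (right), grouped by family, with genes past the edgeR threshold in red. On the left Dnaja4 is the 1 red point; on the right Hspb6 stands at 2.36 and the other called genes between -0.72 and 1.63.

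In the libraries with Cst7 at 1 CPM or more Hspb6 was 5.15-fold higher in mean CPM and Hspb8 2.14-fold higher, and Dnajc3, which guards secretory proteins in the endoplasmic reticulum, was 1.49-fold higher. edgeR, with treatment as a covariate, called 9 of 69 members, 6 higher and 3 lower (13%), against 18.4% of the 20446 genes tested, with 12.6% higher and 5.82% lower. The members' share was below the background. Their median log2 change was -0.01 and that of all genes 0.00. With the pairs summed 3 members were called, all higher (4.35%, against 9.36% of 20591 genes): Hspb6, Hspb8 and Dnajc3. These 3 were also the only members whose ranges did not overlap between the 4 and the 15 libraries (4.35% of 69, against 5.98% of genes in that direction).

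Hspb6 (Hsp20, chr7:30552178-30555443), whose promoter stretch is printed above, was at 5.66 and 6.47 CPM in lemborexant 1 and 10 and at 6.33 and 5.97 CPM in vehicle 1 and 4. The other 15 libraries ran from 19 over a median of 27.0 to 59.9 CPM, with lemborexant 6 the highest and no overlap with the 4. The means were 6.11 ± 0.367 and 31.5 ± 10.8 CPM (SD, n = 4 and 15), a log2 difference of 2.36 ± 0.27 (SE, with an edgeR adjusted p of 5.76e-06). With pairs summed it was 2.37 ± 0.30 (adjusted p = 0.000137), and leaving out any 1 library gave 2.27 to 2.39 with the call kept in 19 of 19 fits.

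Hspb8 (Hsp22, chr5:116408491-116422864), a small heat shock protein that works with Bag3 to send clients to autophagy, was at 16.2 and 16.9 CPM in lemborexant 1 and 10 and at 18.4 and 19.3 CPM in vehicle 1 and 4. The other 15 libraries ran from 25.9 over 32.7 to 62.3 CPM, again with lemborexant 6 on top and no overlap. The log2 difference was 1.08 ± 0.21 (SE, with an edgeR adjusted p of 0.000982), and with pairs summed 1.04 ± 0.23 (adjusted p = 0.00717). Bag3 itself, from the list of other pathway genes, was at 9.71 ± 1.65 and 20.6 ± 4.38 CPM (SD, n = 4 and 15), higher by 1.08 ± 0.16 on the log2 scale (SE).

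Of 9 genes with an Hspb symbol that were tested 6 were above 0 and 3 called: Hspb6, Hspb8 and Hspb2, the last lost with pairs summed. The 3 below 0 were Hspb11, Hspbp1 and Hspbap1. Hspb2, a muscle-type member next to Cryab, was at 0.786 ± 0.207 and 1.77 ± 0.875 CPM (SD, n = 4 and 15) and rose by 1.12 ± 0.34 (SE, with an edgeR adjusted p of 0.026, or 0.0754 with pairs summed). Cryab, the alpha B crystallin gene whose exons overlap it on the other strand, was at 135 ± 36.5 and 347 ± 164 CPM (1.34 ± 0.32, edgeR adjusted p = 0.00539), and without strand the reads of the shared bases cannot be told apart. Hspb1 (Hsp25), a marker of reactive astrocytes, was at 2.80 to 5.61 CPM in the 4 libraries and from 5.15 over 7.90 to 18.0 CPM in the 15, with vehicle 3 highest. The ranges overlapped, and the log2 difference of 0.80 ± 0.28 did not pass (SE, with an edgeR adjusted p of 0.0513).

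Markers of glia were higher along with these genes, and those of vessel cells and choroid plexus lay mostly above 0 too. Of 6 astrocyte markers 5 were called higher with a median of 0.74, of 6 oligodendrocyte markers 5 with a median of 0.92, and of 8 Cst7-side microglia markers all 8 with a median of 3.25. These 8 include Cst7 itself, which defines the split, so its call was fixed in advance. Astrocyte markers summed to 2578 to 3726 CPM in the 4 libraries and to 5817 to 12860 CPM in the 15. All 6 pericyte and smooth muscle markers (median 0.71) and all 6 choroid plexus markers (median 1.35) were above 0, with 0 called. Of 6 meningeal fibroblast markers 5 were above 0 (median 0.65, 0 called), and of 6 endothelial markers 4 (median 0.198, 1 called higher). Of 6 hippocampal and 3 blood markers 0 were above 0, with 0 called. The part of these shifts in the values of Hspb6, Hspb8 and Cryab was not tested, and in tissue RNA more cells of a type cannot be told apart from more RNA per cell.

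In the secretory pathway 7 of 9 members were above 0, with a median of 0.16, and 1 was called. Dnajc3 (p58IPK, chr14:118937976-118981697), whose stress element is printed above, was at 40.4 and 45.2 CPM in lemborexant 1 and 10 and at 36.5 and 38.4 CPM in vehicle 1 and 4. The other 15 libraries ran from 47.5 over 58.1 to 82.7 CPM, with no overlap and lemborexant 6 highest. The log2 difference was 0.57 ± 0.12 (SE, with an edgeR adjusted p of 0.00248), and 0.59 ± 0.13 with pairs summed (adjusted p = 0.00807). The other 2 genes with the element did not pass: Hspa5, its Hsp70 partner, was at 0.05 ± 0.15 (SE, with an edgeR adjusted p of 0.859) and Hsp90b1 at 0.16 ± 0.07 (SE, with an edgeR adjusted p of 0.152). Dnajb11, another lumenal DnaJ protein, was at 26.4 ± 5.68 and 33.1 ± 6.55 CPM (SD, n = 4 and 15; 0.34 ± 0.13, edgeR adjusted p = 0.0791), and Dnajb9 was at 0.20 ± 0.09 (edgeR adjusted p = 0.144).

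**Figure D4:**
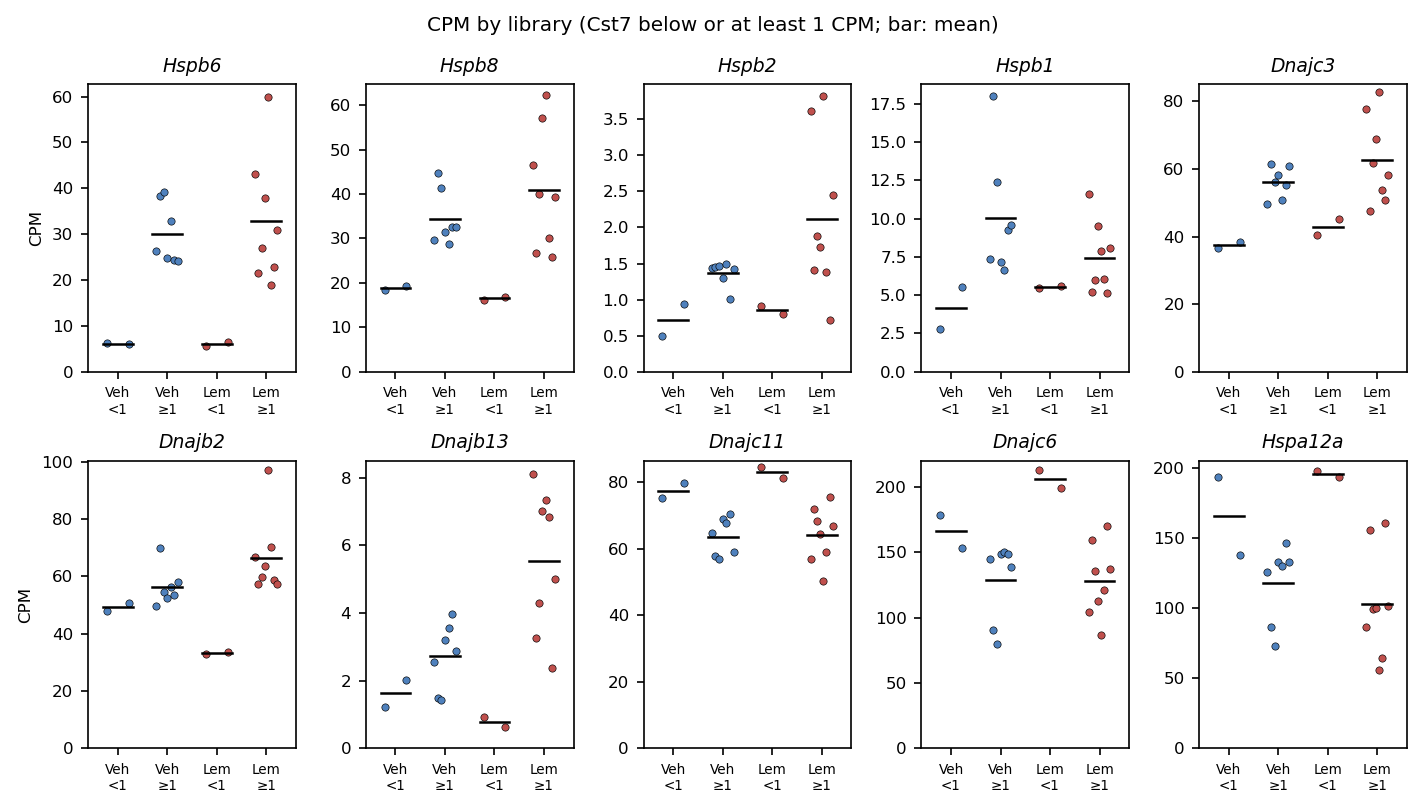
CPM of 10 members in each library by treatment (Veh, Lem) and by Cst7 below 1 CPM or at least 1 CPM, with 1 point per library and a bar at the mean (2, 7, 2 and 8 libraries from left to right). Hspb6, Hspb8 and Dnajc3 show no overlap between the columns below 1 and those at 1 or more, in either treatment.

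The 5 further DnaJ and Hsp70 calls rested on the nearly alike pair lemborexant 1 and 10. Hspa12a, an atypical Hsp70 of neurons, was at 138 to 198 CPM in the 4 libraries and at 55.8 to 161 CPM in the 15, with a log2 difference of -0.72 ± 0.22 (SE, with an edgeR adjusted p of 0.025). Dnajc6, the auxilin that strips clathrin from synaptic vesicles, was at 153 to 213 CPM and 79.5 to 170 CPM (-0.53 ± 0.16, edgeR adjusted p = 0.0277). Dnajc11, a protein of mitochondrial cristae, was at 75.2 to 84.6 CPM and 50.3 to 75.5 CPM (-0.33 ± 0.09, edgeR adjusted p = 0.0149). All 3 were lower in libraries with Cst7, with overlapping ranges, and on library totals all 3 kept this direction and missed the threshold. The 5 excitatory neuron markers were below 0 as well, 1 of them called, with summed levels of 3171 to 3303 CPM in the 4 libraries and 421 to 2713 CPM in the 15, and their part was not tested.

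Dnajb2, a neuron-enriched DnaJ protein that binds ubiquitinated clients, was at 32.9 and 33.4 CPM in lemborexant 1 and 10 but at 48.0 and 50.6 CPM in vehicle 1 and 4, where the 15 others ran from 49.7 to 97.1 CPM. It was higher by 0.57 ± 0.15 (SE, with an edgeR adjusted p of 0.0121, or 0.107 with pairs summed). Dnajb13 was at 0.617 to 2.02 CPM in the 4 libraries and 1.43 to 8.12 CPM in the 15 (1.63 ± 0.43, edgeR adjusted p = 0.0113, or 0.0801 with pairs summed). Its partner on the other strand, Ucp2, was higher by 1.76 ± 0.16 (edgeR adjusted p = 1.16e-06), and the ependymal and cilia markers were all above 0 with 1 of 6 called. Without lemborexant 1, and likewise without lemborexant 10, none of the 5 genes nor Hspb2 passed, and without vehicle 1 Hspa12a, Dnajc6 and Hspb2 did not. With pairs summed and that unit left out 2 members were called (2.9% of 69, against 3.5% of 21170 genes), Hspb6 at 2.28 ± 0.38 (edgeR adjusted p = 0.00353) and Hspa1a at 1.10 ± 0.23 (edgeR adjusted p = 0.0122). No lemborexant unit below 1 CPM of Cst7 is left in that fit. With treatment as a covariate its differences therefore come from vehicle libraries alone, the same contrast as the fit within vehicle libraries below.

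The abundant cytosolic chaperones did not pass across the split. Hspa8 was at 4151 ± 234 CPM in the 4 libraries and 3651 ± 393 CPM in the 15 (-0.18 ± 0.10, edgeR adjusted p = 0.232), and Hsp90ab1 was at 2353 ± 131 and 2069 ± 172 CPM (-0.18 ± 0.08, edgeR adjusted p = 0.13). Hsp90aa1 was at 960 ± 206 and 964 ± 126 CPM (0.02 ± 0.12, edgeR adjusted p = 0.928). The 3 Hsp110 genes lay between -0.18 and 0.08 and the chaperonin genes Hspd1 and Hspe1 at -0.01 and 0.23, with 0 called among these 5. The heat shock factor targets had a median of -0.01 with 6 of 11 below 0 and 0 called; on library totals 4 of 11 were below 0 and Hspb1 passed. Dnajc5 and Dnajc7, which passes clients between Hsp70 and Hsp90, were at -0.23 ± 0.10 and -0.18 ± 0.07 (SE, with edgeR adjusted p-values of 0.121 and 0.0925), Hspa2 at -0.30 ± 0.12 (SE, with an edgeR adjusted p of 0.0797) and Dnajb7 at -0.45 ± 0.41 (SE, with an edgeR adjusted p of 0.488). Dnaja1, Dnaja2, Dnaja3 and Dnaja4 lay between -0.19 and 0, and 0 of 4 passed.

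Of the 54 other pathway genes the split called 6, 3 higher and 3 lower, against the 18.4% of all genes given above. They included Bag3, Cryab and Sil1 (a nucleotide exchange factor of Hspa5, log2 difference 0.36), which were higher, and Bag4 (-0.37) and Hsf2 (-0.24), which were lower. With pairs summed Bag3, Cryab and Bag4 remained called (edgeR adjusted p = 0.000912, 0.0394 and 0.0398), while Sil1 and Hsf2 missed (0.121 and 0.132). On library totals 3 were called higher and 0 lower.

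The split was also fitted within each treatment, 2 against 7 vehicle libraries and 2 against 8 lemborexant libraries, where the 2 are the nearly alike pair. In vehicle libraries 4 of 68 members were called (5.88%, against 5.03% of 20014 genes), Hspb6, Hspb8, Dnajc3 and Hspa1a. In lemborexant libraries 5 of 69 were called (7.25%, against 10.1% of 21086 genes), Hspb6, Hspb8, Dnajb2, Dnajb13 and Hspa2. With pairs summed, where 1 unit stood against 6 and was assumed to vary like them, edgeR called 0 members and 0 of 22182 genes (0%), with 7 members (10.1%) and 2821 genes (12.7%) at an unadjusted p under 0.05. The 5 calls thus rest on counting lemborexant 1 and 10 as separate, and Hspb6 was at 2.52 ± 0.65 (SE, with an edgeR adjusted p of 0.252) in that fit. With libraries separate, Hspb6 was at 2.29 ± 0.26 in the first and 2.43 ± 0.44 in the second (log2, SE), and Dnajc3 at 0.59 ± 0.12 and 0.55 ± 0.20 (edgeR adjusted p = 0.0157 and 0.0972). For both genes the 2 values lay within 1 SE of each other.

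Hspa1a gave different values in the 2 fits. In vehicle libraries it was at 4.09 and 5.97 CPM below the boundary (vehicle 1 and 4) and at 8.45 to 13.2 CPM above it, a log2 difference of 1.11 ± 0.22 (SE, with an edgeR adjusted p of 0.016). In lemborexant libraries it was at 5.51 and 9.65 CPM (lemborexant 1 and 10) and at 5.74 to 9.13 CPM, a difference of -0.03 ± 0.23 (SE, with an edgeR adjusted p of 0.937). Lemborexant 1 and 10 thus lay far apart although they are a nearly alike pair. In each such pair the library with the lower number was higher: 10 over 1, 8 over 3 (8.95 and 7.49 CPM) and 9 over 4 (7.16 and 5.74 CPM). Vehicle 1 and 4 are numbered 1574 and 1597, and the part of library number in these 2 fits was not tested. The test of the difference between the 2 effects gave -1.14 ± 0.33 (SE, unadjusted p = 0.00241, edgeR adjusted p = 0.664), which did not pass. Dnajb2 differed the other way, at 0.81 ± 0.23 (unadjusted p = 0.00243, edgeR adjusted p = 0.664), as did Dnajb13 at 2.11 ± 0.64 (edgeR adjusted p = 0.69). In that fit edgeR called 0 of 69 members, with 7 at an unadjusted p under 0.05 (10.1%), against 3 of 21561 genes called (0.0139%) and 1128 at an unadjusted p under 0.05 (5.23%). With pairs summed it called 0 members and 0 genes (0%), with 5 of 70 members (7.14%) and 537 genes (2.38%) at an unadjusted p under 0.05.

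**Figure D5:**
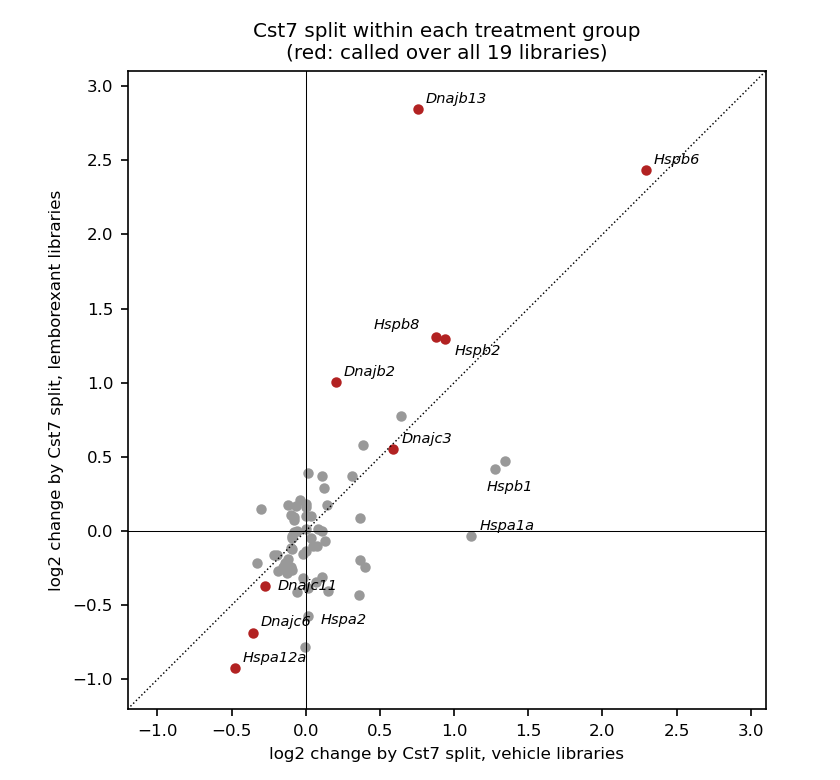
Log2 difference by the Cst7 split within vehicle libraries (horizontal axis) and within lemborexant libraries (vertical axis), 1 point per member, with the dotted line at equal values and members called over all 19 libraries in red. Hspb6 and Dnajc3 lie near the line, Hspa1a at 1.11 and -0.03, and Dnajb13 at 0.75 and 2.84.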

How the data were processed

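Reads from 19 cortex libraries (10 lemborexant, 9 vehicle, numbered within each group in the order of the deposit) were processed by the submitters with bcl2fastq and DRAGEN 3.9.3-8 on GRCm38, per the submitters' processing notes, from libraries made with a SMARTer Ultra Low kit, per the labels' protocols. The strand setting, the release of the annotation and the filters used were not given in the sources used here. Each gene has an estimated count and a TPM value, per the file headers. The deposited estimated counts need not be whole and were rounded. The deposited TPM values, scaled by the authors' program to gene length and library total, served for levels between genes only. GENCODE's GRCm38 annotation (M21) gave symbols for 55227 of 55487 identifiers, and promoter sequences came from RefSeq (GRCm38.p6).

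The members, gene lists and tests were chosen with earlier results of these data known. edgeR 4.0.16 (R 4.3.3) tested all genes that passed its expression filter with TMM factors, robust quasi-likelihood fits and two-sided Benjamini-Hochberg adjusted p-values at 0.05. CPM values use TMM factors, and the SE is the log2 change over the square root of F. The split at 1 CPM of Cst7 (before TMM scaling) was fitted with treatment as a covariate. Named members are a panel of 36, all called members and, in each comparison, the 3 highest and 3 lowest with a mean of at least 1 CPM. On simulated counts the treatment fit (19105 genes) recovered 33 of 100 genes changed 1.5-fold and 69 of 100 changed 2-fold, with 3 false calls, and the Cst7 fit (20446 genes) 17 and 51 of 100, with 5 false calls. The simulated libraries were independent and held no nearly alike pairs, so these numbers do not cover what such pairs do to the calls. Alternatives were DESeq2 1.42.0, RLE factors, library totals, no filter, library number range as a covariate, other Cst7 boundaries, no treatment term and leaving out libraries. The range covariate set libraries numbered 859 to 933 apart from those numbered 1064 to 1602. In both ranges every lemborexant number lay below every vehicle number, so this fit cannot separate treatment from numbering order. The lemborexant libraries of the lower range (8, 9 and 10) each belong to a nearly alike pair with 1 of the upper range. Added after seeing the data were summed pairs with libraries left out, fits within each treatment (lemborexant also with pairs summed), lemborexant 7 and vehicle 7 left out for the split, and the interaction.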

Additional observations from a re-analysis of the deposited data

Results flagged for a closer look

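In each treatment group the highest and lowest library of the 41 named members was compared with its group by Dixon's criterion, 82 groups in all, and 6 were marked; chance alone marks about 1 in 20 groups. Lemborexant 7 was high for Dnajc12, the chaperone of monoamine-synthesising enzymes, at 40.0 CPM where the rest of its group had 17.5 to 21.0 CPM, and for Hspa13, a microsomal Hsp70, at 49.3 CPM against 30.5 to 40.3 CPM. Lemborexant 6, the library with the most Cst7 of its group, was high for Hsp90aa1 at 1187 CPM against 805 to 966 CPM, and for Hspe1 at 160.0 CPM against 79.3 to 116 CPM. Vehicle 3 was high for Dnajb2 at 69.8 CPM against 48.0 to 57.9 CPM. Vehicle 1, a library with Cst7 below 1 CPM, was low for Hsp90b1 at 268 CPM against 302 to 326 CPM.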

How the results depend on the processing

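Over all genes lemborexant calls ran from 31 to 1274 with 1 library left out, against 498. They came to 254 with no expression filter, 1825 with DESeq2, 0 with nearly alike pairs summed (also with the 4 libraries below 1 CPM of Cst7 left out), 318 with the library number range as a covariate, and 307 without lemborexant 7 and vehicle 7. Members called after lemborexant ran from 0 to 4 with 1 library left out, against 1. They came to 8 with DESeq2, 3 without the libraries below 1 CPM of Cst7, and 0 on library totals, with no filter, with pairs summed (with or without those 4 libraries), with the range covariate, and without lemborexant 7 and vehicle 7. For the Cst7 split, calls over all genes ran from 1949 to 4215 with 1 library left out, against 3755, and came to 1928 with pairs summed, 1007 in vehicle libraries, 2129 in lemborexant libraries, 740 with pairs summed and the unit of lemborexant 1 and 10 left out, and 0 in lemborexant libraries with pairs summed. Members called by the split ran from 3 to 13, against 9, and came to 18 with DESeq2, 3, 4, 5, 2 and 0 in these same 5 fits. The causes were not tested, beyond the fewer libraries that summing and leaving out bring. No named member changed direction where either value was called or both exceeded their SE. Called values of named members stayed past the threshold in 255 alternative fits and missed it in 70, and uncalled ones passed it in 35. Cst7 boundaries of 0.5 and 2 CPM split the libraries just as 1 CPM does, so agreement in those fits was fixed in advance. No paired analysis was possible because the labels give library numbers and no replicate numbers shared between groups. The shallowest library had 20185098 reads, in which 1 CPM is about 20 reads, so the spread between libraries limits most members.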
